A study of Mus musculus with 20 samples.

Results

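The genes described here are 44 genes of the cell cycle and of DNA replication, out of 54838 genes counted in mouse ovary. They were chosen by symbol as a readout of cell division and matched to the Ensembl identifiers of the count tables, and all 44 were found. They comprise 20 genes that act at the entry into S phase and in DNA replication, 21 genes of mitosis, the G1 cyclin gene *Ccnd2* and the 2 CDK inhibitor genes *Cdkn1a* and *Cdkn1b*. They were chosen by function, with earlier results of these data known.

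The ovaries came from 20 female mice aged 77 days, 1 library per animal and 5 animals in each of 4 groups. FL1 is an outbred mouse line selected for high fertility over many generations, and ctrl is the unselected line from the same founder stock. Each line was sampled in estrus and in diestrus, staged by vaginal cytology, and the labels name no transgene and no treatment. Both ovaries of an animal were freed of fat, tunica and oviduct, and reads from the 3' ends of polyadenylated RNA were counted per gene. Each FL1 animal belongs to 1 selected line, so that selection and drift cannot be told apart.

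A dividing cell first makes the enzymes and loading factors of DNA synthesis and then, in G2, the kinases, cyclins and motor proteins of mitosis. E2F factors are known to drive the first wave. The second wave is known for promoters with a CHR element (cell cycle genes homology region) a short distance from CCAAT boxes. In the ovary the granulosa cells of growing follicles are the best known dividing cells, and D-type cyclin 2 is their principal G1 cyclin. After ovulation these cells leave the cycle and luteinize, with the CDK inhibitors p21 (*Cdkn1a*) and p27 (*Cdkn1b*).

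The letters of these elements are marked in the promoters of some of the genes. In each sequence, read 5' to 3' on the strand of the gene and ending at the base before the RefSeq start site (GRCm38.p6), capitals mark E2F letters (TTTCCCGC, TTTCGCGC, TTTGCCGC or TTTGGCGC), CHR letters (TTTGAA or TTCGAA) and CCAAT, each on either strand. Overlapping E2F matches run together.
Mcm6, chr1:128359706-128359825, minus strand: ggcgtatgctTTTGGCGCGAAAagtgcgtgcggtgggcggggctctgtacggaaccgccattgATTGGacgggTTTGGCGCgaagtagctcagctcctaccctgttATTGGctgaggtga
Mcm5, chr8:75109349-75109508, plus strand: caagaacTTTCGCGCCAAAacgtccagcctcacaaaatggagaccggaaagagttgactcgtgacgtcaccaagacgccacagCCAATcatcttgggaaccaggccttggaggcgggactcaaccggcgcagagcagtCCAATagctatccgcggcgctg
Pcna, chr2:132253181-132253280, minus strand: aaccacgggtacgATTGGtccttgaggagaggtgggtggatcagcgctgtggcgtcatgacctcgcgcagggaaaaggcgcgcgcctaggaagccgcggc
Cdk1, chr10:69352913-69353047, minus strand: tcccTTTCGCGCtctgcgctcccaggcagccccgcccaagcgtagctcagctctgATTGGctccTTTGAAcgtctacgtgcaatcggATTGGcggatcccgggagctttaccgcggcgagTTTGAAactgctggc
Ccnb2, chr9:70421555-70421732, minus strand: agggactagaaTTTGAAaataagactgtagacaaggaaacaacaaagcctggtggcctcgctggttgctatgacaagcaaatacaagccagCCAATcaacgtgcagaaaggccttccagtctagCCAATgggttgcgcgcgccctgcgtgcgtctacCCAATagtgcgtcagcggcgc
Kif11, chr19:37376324-37376381, plus strand: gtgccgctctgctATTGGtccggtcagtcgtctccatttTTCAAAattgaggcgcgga
*Pcna* shows CCAAT only, with neither E2F nor CHR letters. The CHR letters printed for *Ccnb2* (-167 to -162) lie well before its first CCAAT (-87 to -83). Its other CHR letters, at bases 5 to 10 after the start, lie beyond the printed stretch. *Mcm6*, *Mcm5* and *Pcna* are S phase genes and *Cdk1*, *Ccnb2* and *Kif11* are mitosis genes. They are shown because *Pcna* and *Mcm6* differed between the lines, the 3 mitosis genes differed between the stages of FL1, and *Mcm5* is a partner of *Mcm6* that did not pass a test.

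RefSeq windows from 250 bases before to 50 bases after the start were at hand for 17 S phase genes (20 windows), 17 mitosis genes (18 windows) and both CDK inhibitors. The genes without one were *Mcm4*, *Gins2*, *Ccne2*, *Ccna2*, *Aurkb*, *Kif20a*, *Tpx2* and *Ccnd2*. E2F letters were found in 8 of the 20 S phase windows and in 1 of the 18 mitosis windows, that of *Cdk1*, against 2.26% of 32851 windows of all genes. CHR letters together with CCAAT were found in 14 of the 18 mitosis windows and in 2 of the 20 S phase windows, against 7.52% of all windows. CCAAT, with or without CHR letters, was frequent and was found in 37.4% of all windows. These matches describe the letters only, and the windows of *Pcna* and *Tyms* held no E2F letters as searched.

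Libraries held between 5991223 and 10352718 counts. Expression is given as CPM, which are counts scaled to a common library size, after TMM normalization over all libraries. The spread between libraries includes both the animals and the library preparation. The 44 genes were all tested in every comparison, with counts per library from 21 (*Aurkb*) to 13529 (*Ccnd2*). The ovary is a mixed tissue, in which fewer dividing cells and less RNA per cell cannot be told apart. Granulosa marker genes such as *Foxl2* (an ovarian transcription factor) and *Fshr* (the FSH receptor) were expressed in each group, whereas *Amh*, another granulosa marker, stayed under 3 CPM in each library, as did *Insl3* of theca cells and the 3 oviduct markers.

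One library stood apart. In replicate 5 of ctrl in estrus, 29 of the 44 genes had their lowest log2 CPM of all 20 libraries, compared with 15.9% of 14154 genes expressed over the libraries. Against the mean of the other 4 animals of its group, the median difference of the S phase genes was -0.67 on the log2 scale (19 of 20 lower) and that of the mitosis genes -0.99 (21 of 21 lower). Over all expressed genes this median was -0.01. Other markers moved with it: all 10 granulosa markers were lower (median -1.25), all 10 oocyte markers were lower (median -0.72), and 7 of 8 luteal markers were higher (median 0.90). All 4 theca markers were lower (median -0.86), and 1 of 5 endothelial markers was lower (median 0.92). The 4 fat markers had a median of 2.15. Of these, *Plin1* hardly differed (0.04, 26.4 against a mean of 27.0 CPM). *Adipoq*, *Cidec* and *Retn* had means of 0.32, 0.13 and 1.38 CPM in the other animals. The part of these cell types in the low level was not tested. The class medians and most of the log2 fold changes (log2FC) of single genes that rest on ctrl in estrus are therefore also given without this animal.

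The mean log2 CPM of the S phase genes was 4.93 ± 0.39 (SD, n = 5) in ctrl in estrus, 5.08 ± 0.27 in FL1 in estrus, 4.80 ± 0.16 in ctrl in diestrus and 4.73 ± 0.14 in FL1 in diestrus. For the mitosis genes it was 5.29 ± 0.48, 5.68 ± 0.37, 5.15 ± 0.19 and 5.22 ± 0.09 in the same order. All 4 groups overlapped, those of ctrl only through replicate 5 of estrus. The other 4 ctrl animals in estrus had S phase levels of 5.07 to 5.14, above the 4.61 to 4.96 of ctrl in diestrus. Their mitosis levels were 5.43 to 5.56, above the 4.93 to 5.38 of ctrl in diestrus. Without replicate 5 the means of ctrl in estrus were 5.11 ± 0.03 and 5.51 ± 0.06 (n = 4), so that the mean of the S phase genes was then highest in ctrl in estrus and that of the mitosis genes remained highest in FL1 in estrus. Of the 21 mitosis genes, 20 had their highest group mean in FL1 in estrus, and *Mki67* had it in ctrl in estrus. Of the 20 S phase genes, 14 had it in FL1 in estrus, 5 in ctrl in estrus and 1, the cyclin E gene *Ccne1*, in FL1 in diestrus. Over all expressed genes, 26.9% had their highest mean in FL1 in estrus. These counts also turned on replicate 5 of ctrl. Without it, an alternative chosen after seeing the data, 18 mitosis genes had their highest mean in FL1 in estrus and 3 in ctrl in estrus (*Top2a*, *Mki67* and *Kif11*), whereas 9 S phase genes had it in FL1 in estrus, 10 in ctrl in estrus and 1 in FL1 in diestrus.

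**Figure D1:**
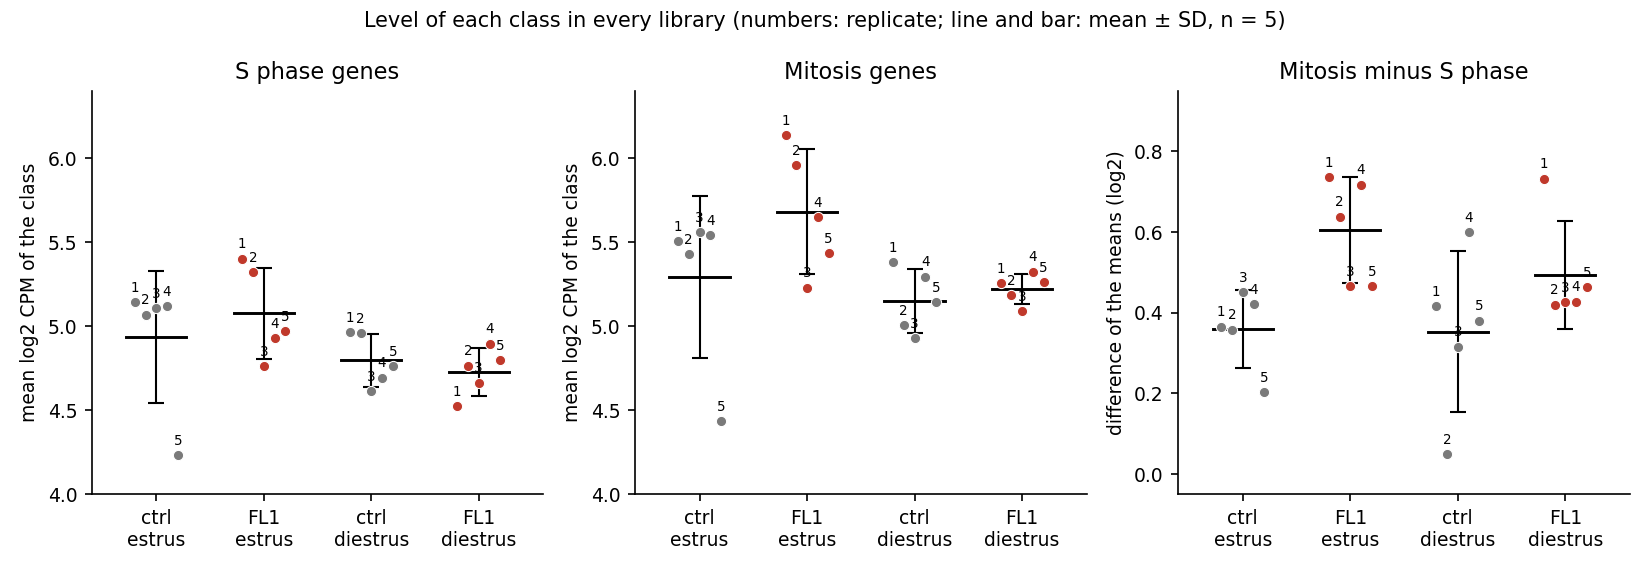
Mean log2 CPM of the 20 S phase genes (left) and the 21 mitosis genes (middle), and the difference between both (right), for each of the 20 libraries by group, with mean and SD (n = 5). Replicate 5 of ctrl in estrus lies lowest in the left and middle panels (4.23 and 4.43), and replicates 1 and 2 of FL1 in estrus lie highest (mitosis genes 6.14 and 5.96).

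Within FL1 in estrus the animals differed. Replicates 1 and 2 had mitosis levels of 6.14 and 5.96, whereas replicates 3 to 5 had 5.23, 5.65 and 5.44. Replicate 1 held the highest log2 CPM of all 20 libraries for 29 of the 44 genes, compared with 8.58% of all expressed genes. In the same 2 animals the summed CPM of the 5 surface epithelium markers was 188 and 182 (105 to 119.2 in the other 3), and that of the 10 granulosa markers was 4511 and 4530.2 (2856 to 3431). The summed CPM of the 10 oocyte markers was 627 in replicate 1 and 259 to 374 in the other 4. Replicates 1 and 2 also had the highest sums of erythroid markers (1673 and 1650, against 877 to 1069 in the other 3). Their sums of luteal markers were the lowest (18013 and 21755, against 25209 to 35467). So were those of theca (702 and 770, against 867 to 938) and endothelial markers (204 and 229, against 237 to 272). The part of these cells in the levels was not tested. The median SD of the mitosis genes on the log2 scale was 0.41 in FL1 in estrus and 0.20 in FL1 in diestrus, whereas over all expressed genes it was 0.25 and 0.23. In ctrl in estrus the median SD was 0.48 with replicate 5 and 0.16 without it.

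The mitosis and S phase levels were also set against each other within each library. The mitosis level exceeded the S phase level by 0.37, 0.36, 0.45, 0.42 and 0.20 in the animals of ctrl in estrus and by 0.74, 0.64, 0.47, 0.72 and 0.47 in those of FL1 in estrus. These groups did not overlap, although the highest ctrl animal (0.45) lay close to the lowest FL1 animals (0.47). In diestrus the difference was 0.05 to 0.60 in ctrl and 0.42 to 0.73 in FL1, which overlapped. The other mitosis genes and the other replication genes described further on gave differences of -0.05, -0.10, 0.06, 0.08 and -0.23 in ctrl in estrus and 0.33, 0.22, -0.04, 0.21 and 0.05 in FL1 in estrus, which overlapped. As scores over chosen genes, these differences were not tested.

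The lines were first compared in estrus. Of the 44 genes 1 passed the test, *Pcna*, which was lower in FL1, while 2.33% of 13374 genes passed in either direction and 1.26% were lower. *Pcna* encodes the sliding clamp that holds DNA polymerase on its template (chromosome 2, 132249162 to 132253314, minus strand). Its CPM was 41.6, 41.0, 38.8, 44.3 and 47.2 in ctrl and 29.9, 27.8, 18.3, 27.4 and 22.8 in FL1. Each FL1 animal lay below each ctrl animal, as in 2.4% of all genes tested, and the ctrl animal with the low levels of the other genes had the highest value. The log2FC was -0.76 ± 0.14 (SE; adjusted p = 0.011, edgeR), -0.72 ± 0.14 without replicate 5 of ctrl, and *Pcna* passed in each of the 10 fits that left out 1 library (log2FC -0.83 to -0.66). *Pcna-ps2*, a processed copy that shares sequence with the end of *Pcna*, had 17 counts in ctrl and 32 in FL1 over 5 libraries, compared with 1591 and 960 on *Pcna*.

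The partners of *Pcna* in replication did not pass. *Mcm5*, a subunit of the MCM helicase that opens the DNA, had 44.3, 42.1, 60.0, 53.6 and 30.5 CPM in ctrl and 59.8, 60.6, 33.0, 42.9 and 40.2 CPM in FL1, which overlapped (log2FC 0.03 ± 0.20, and -0.08 ± 0.18 without replicate 5 of ctrl). *Rrm2*, the small subunit of ribonucleotide reductase, had 40.8, 39.8, 28.1, 39.2 and 12.0 CPM in ctrl and 37.0, 34.9, 25.2, 25.0 and 24.2 CPM in FL1 (log2FC -0.14 ± 0.26, and -0.34 ± 0.16 without replicate 5). The median log2FC of the 20 S phase genes was 0.06, with 15 above 0, and -0.06 without replicate 5 of ctrl. The median over all genes tested was -0.01.

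None of the 21 mitosis genes passed in estrus between the lines (smallest adjusted p = 0.15, edgeR), and 5 of them had an unadjusted p below 0.05, compared with 15.9% of all genes tested. Their median log2FC was 0.41 with 20 above 0, and 0.26 with 18 above 0 without replicate 5 of ctrl. Marker genes also differed, in medians that include replicate 5 of ctrl, where all 10 granulosa and all 10 oocyte markers were low. The median log2FC was 0.41 for 9 granulosa markers (none passed), 0.31 for 10 oocyte markers (none passed), 0.68 for 5 surface epithelium markers (1 passed, higher) and -0.41 for 5 endothelial markers (none passed). It was -0.02 for 8 luteal, -0.39 for 3 theca, -0.26 for 5 stroma and 0.29 for 5 erythroid markers (none passed). For 5 leukocyte markers it was -0.13 (1 passed, higher). Their part in the level of the mitosis genes was not tested. *Ccnb2*, a mitotic cyclin, had the smallest adjusted p, with a log2FC of 0.66 ± 0.22 (0.53 ± 0.19 without replicate 5). Its CPM was 32.0, 45.1, 37.4, 45.9 and 21.5 in ctrl and 76.4, 72.6, 39.9, 56.7 and 43.3 in FL1, so that the groups overlapped. *Mki67*, the gene of the proliferation marker Ki-67, was the only mitosis gene with a log2FC below 0 (-0.29 ± 0.26, and -0.48 ± 0.18 without replicate 5 of ctrl, when those of 2 other mitosis genes were also below 0). Its CPM was 27.7, 21.9, 40.8, 33.3 and 10.9 in ctrl and 24.6, 26.0, 21.3, 21.5 and 17.7 in FL1.

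In diestrus 1 of the 44 genes passed between the lines, compared with 4.11% of 13259 genes in either direction and 1.82% that were lower. *Mcm6*, another subunit of the MCM helicase, was lower in FL1 (log2FC -0.57 ± 0.11, adjusted p = 0.0098, edgeR). Its CPM was 103, 88.4, 88.9, 93.9 and 85.6 in ctrl and 66.3, 58.7, 47.8, 60.8 and 75.9 in FL1, and the groups did not overlap, with FL1 lower, as in 2.49% of all genes tested. It passed in each of the 10 fits without 1 library, but not when all 20 libraries shared 1 estimate of the spread. In estrus *Mcm6* had 109, 95.9, 106, 114 and 42.1 CPM in ctrl and 128, 102, 76.2, 72.6 and 62.6 CPM in FL1, with a log2FC of -0.08 ± 0.24 (-0.26 ± 0.17 without replicate 5). *Pcna* had 33.0, 32.1, 32.1, 19.0 and 35.3 CPM in ctrl in diestrus and 19.4, 21.9, 25.4, 22.6 and 33.9 CPM in FL1 (log2FC -0.31 ± 0.18, adjusted p = 0.41). The other helicase subunits, *Mcm2* to *Mcm5* and *Mcm7*, did not pass in either stage. The median log2FC in diestrus was -0.07 for the S phase genes and 0.04 for the mitosis genes, and 0.12 and -0.16 were the log2FC of *Top2a* (DNA topoisomerase II) and *Mki67*.

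**Figure D2:**
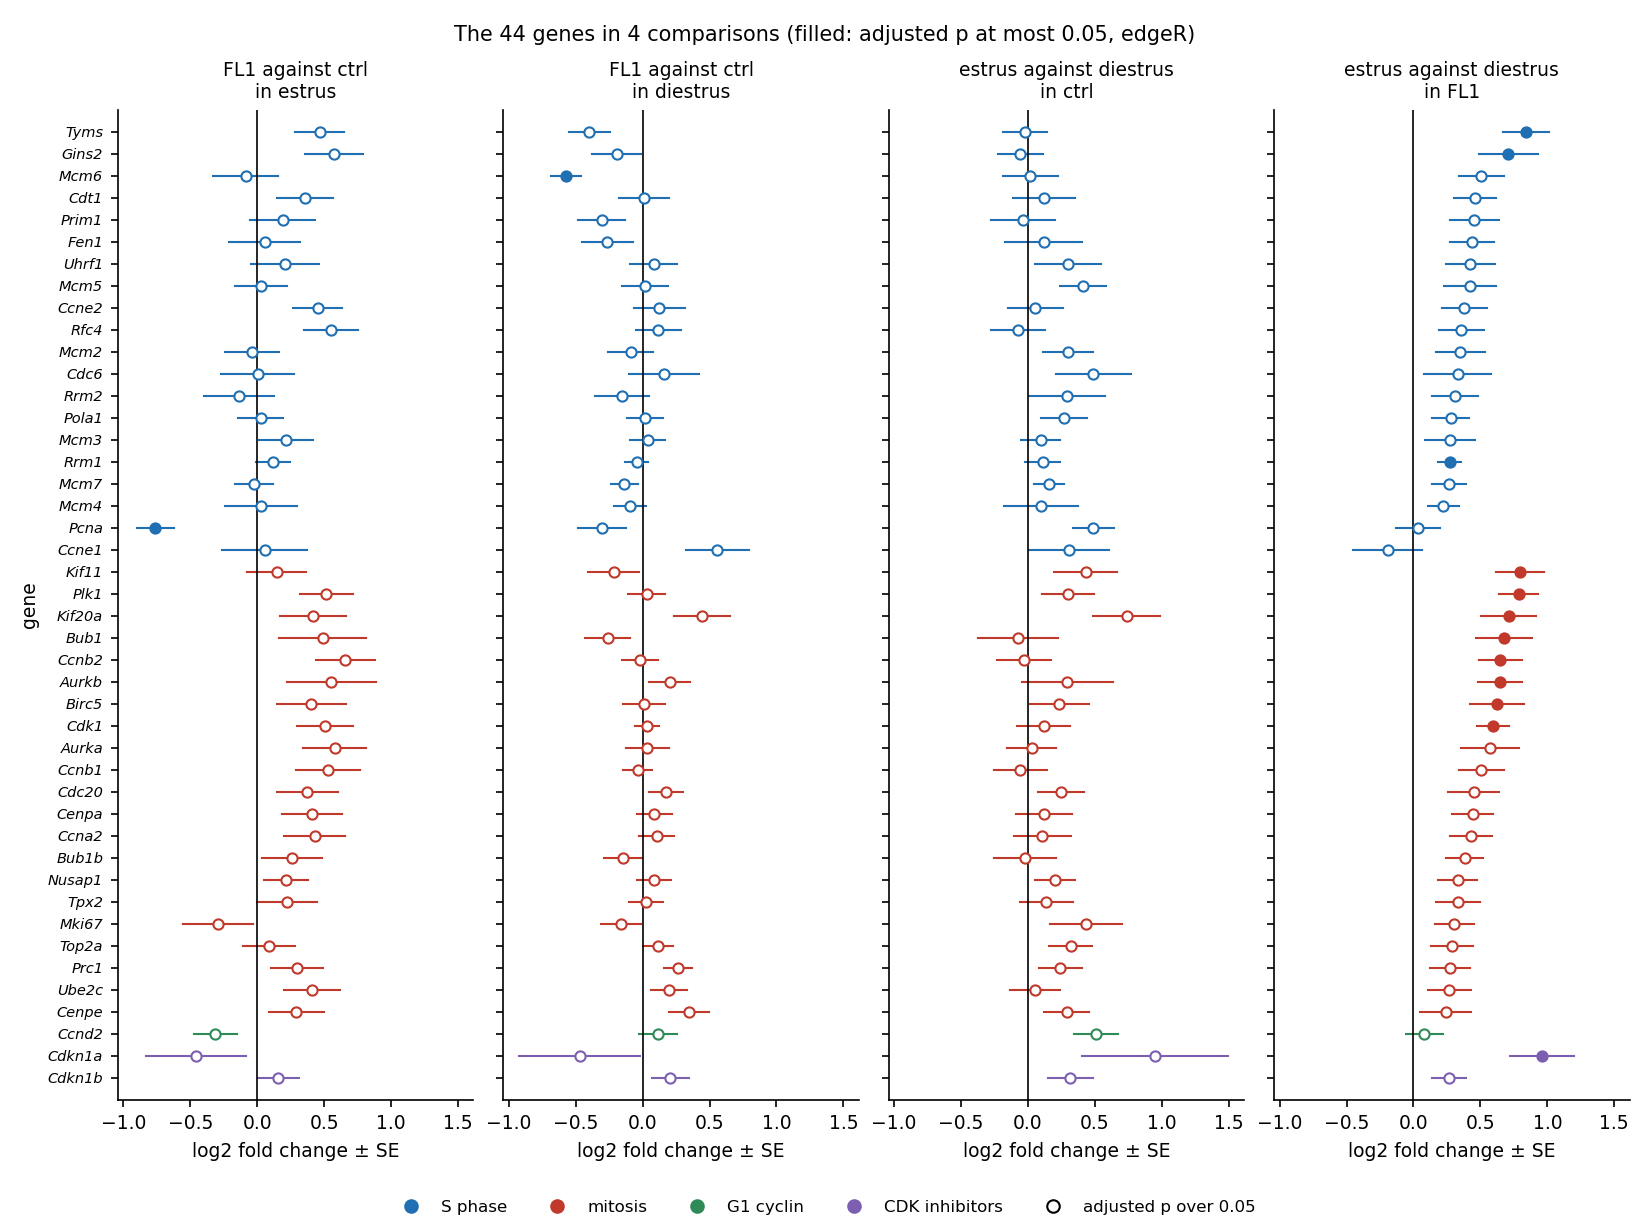
Log2 fold change with SE of the 44 genes in 4 comparisons, sorted by class and by the change between the stages of FL1. Filled points passed an adjusted p of 0.05: *Pcna* in estrus and *Mcm6* in diestrus between the lines, none between the stages of ctrl and 12 between the stages of FL1. The comparisons share libraries in pairs and are not independent.

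The stages were then compared within each line. In FL1, 12 of the 44 genes passed and each of them was higher in estrus, compared with 15.9% of 13350 genes in either direction and 7.42% that were higher. By class these were 3 of 20 S phase genes, 8 of 21 mitosis genes and *Cdkn1a*. All 21 mitosis genes had a log2FC above 0 (median 0.45, 0.24 to 0.79), as did 19 of the 20 S phase genes (median 0.35), and the median over all genes tested was 0.01. The number that passed rested on single animals: it was 23 without replicate 3 of FL1 in estrus, and 7 without replicate 1 or 2 of FL1 in estrus or replicate 2 or 3 of FL1 in diestrus. The 7 genes *Tyms*, *Ccnb2*, *Cdk1*, *Aurkb*, *Plk1*, *Kif11* and *Cdkn1a* passed in each of the 10 fits without 1 library.

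Of the S phase genes, *Tyms* encodes thymidylate synthase, which makes the thymidine nucleotide of DNA. Its CPM was 36.1, 38.0, 20.5, 29.1 and 31.9 in FL1 in estrus and 17.6, 21.2, 12.8, 18.3 and 16.4 in FL1 in diestrus, and only replicate 3 of estrus lay within the range of diestrus (log2FC 0.84 ± 0.17, adjusted p = 0.0032, edgeR). *Gins2*, a subunit of the replicative helicase complex, had 36.5, 31.6, 17.0, 18.8 and 23.9 CPM in estrus and 15.1, 16.5, 12.1, 22.0 and 11.9 CPM in diestrus (log2FC 0.71 ± 0.22), and passed in 3 of the 10 fits without 1 library. *Rrm1*, the large subunit of ribonucleotide reductase, had 90.5, 86.7, 74.6, 89.8 and 90.0 CPM in estrus and 70.7, 63.6, 73.5, 74.6 and 74.8 CPM in diestrus (log2FC 0.27 ± 0.09), and passed in 1 of these fits. *Mcm6* lay just beyond the threshold (log2FC 0.51 ± 0.17, adjusted p = 0.053). *Pcna* had a log2FC of 0.03 ± 0.17.

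Of the mitosis genes, *Cdk1* encodes the kinase that starts mitosis. Its CPM was 175, 181, 114, 144 and 133 in FL1 in estrus and 109, 93.6, 85.5, 104 and 101 in FL1 in diestrus, without overlap (log2FC 0.59 ± 0.12, adjusted p = 0.0028, edgeR). *Plk1*, the polo-like kinase of mitotic entry and spindle assembly, had 101, 78.9, 55.0, 62.1 and 60.5 CPM in estrus and 45.5, 42.9, 35.8, 42.6 and 39.7 CPM in diestrus, again without overlap (log2FC 0.79 ± 0.15, adjusted p = 0.0016). *Ccnb2* had 35.6, 34.3, 38.0, 39.7 and 35.7 CPM in diestrus, all below the estrus values given above (log2FC 0.65 ± 0.16, adjusted p = 0.011). The 3 genes were those of the 44 whose stages did not overlap in FL1, and 5.65% of all genes tested were higher in estrus without overlap.

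*Kif11*, the motor that pushes the spindle poles apart, had 22.4, 21.3, 17.5, 13.9 and 18.5 CPM in estrus and 14.1, 11.1, 9.46, 10.9 and 8.18 CPM in diestrus (log2FC 0.79 ± 0.18). *Aurkb*, the Aurora kinase of the chromosomal passenger complex, had 30.9, 26.9, 16.6, 24.3 and 24.9 CPM in estrus and 14.2, 19.5, 14.0, 16.5 and 14.2 CPM in diestrus (log2FC 0.65 ± 0.17). In both genes 1 of the 5 estrus animals lay within the range of diestrus. *Birc5* (survivin, of the same complex), *Bub1* (a kinase of the spindle checkpoint) and *Kif20a* (a motor of cytokinesis) had log2FC of 0.62 ± 0.20, 0.67 ± 0.21 and 0.71 ± 0.20.

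These 3 genes passed less firmly. *Birc5* had 140.0, 118, 56.7, 86.5 and 67.6 CPM in estrus and 71.4, 61.5, 46.2, 65.0 and 58.4 CPM in diestrus, and passed in 3 of the 10 fits without 1 library. *Bub1* had 34.9, 21.9, 14.8, 21.5 and 20.6 CPM in estrus and 12.2, 14.0, 12.8, 12.2 and 19.9 CPM in diestrus, and passed in 2. *Kif20a* had 36.8, 34.1, 15.9, 24.6 and 23.8 CPM in estrus and 13.1, 14.7, 15.1, 19.4 and 19.9 CPM in diestrus, and passed in 5. In all of them replicate 3 was the lowest estrus animal.

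Some of the best known proliferation genes did not pass in FL1. *Mki67* had a log2FC of 0.31 ± 0.15 (adjusted p = 0.17, edgeR), with 20.9, 17.7, 13.9, 19.0 and 17.9 CPM in diestrus. *Top2a* had 294, 304, 169, 256.1 and 194 CPM in estrus and 188, 174, 170.2, 259.7 and 202 CPM in diestrus (log2FC 0.29 ± 0.16). *Ccnb1*, the main mitotic cyclin, had 68.8, 61.6, 34.8, 42.6 and 37.9 CPM in estrus and 33.3, 38.7, 29.5, 35.6 and 34.9 CPM in diestrus (log2FC 0.51 ± 0.17, adjusted p = 0.053). *Mcm5* and *Rrm2* had log2FC of 0.42 ± 0.19 and 0.31 ± 0.17, with 31.6, 31.1, 23.3, 46.7 and 43.2 CPM for *Mcm5* and 15.1, 23.3, 23.0, 27.4 and 28.9 CPM for *Rrm2* in diestrus.

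**Figure D3:**
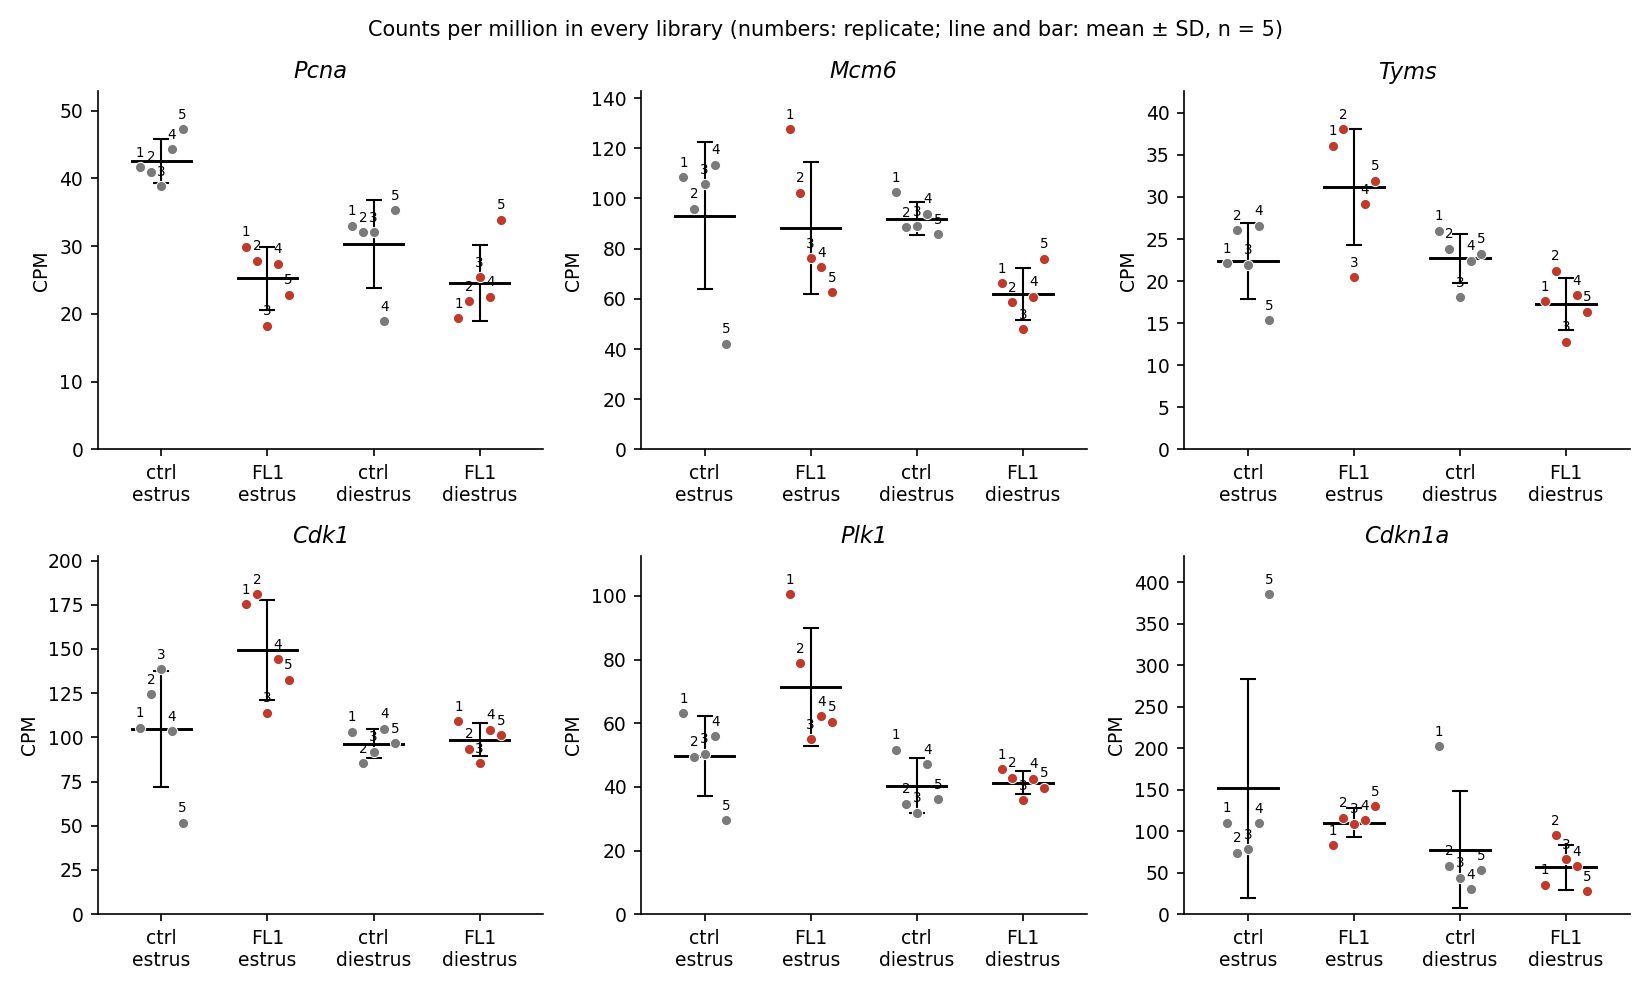
CPM of 6 genes in each of the 20 libraries by group, with mean and SD (n = 5). *Pcna* was lower in FL1 in estrus and *Mcm6* in FL1 in diestrus without overlap, *Tyms*, *Cdk1* and *Plk1* were higher in estrus than in diestrus in FL1, and *Cdkn1a* reached 385 CPM in replicate 5 of ctrl in estrus.

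In ctrl none of the 44 genes passed between the stages (smallest adjusted p = 0.12, edgeR), and 4 had an unadjusted p below 0.05, while 2.85% of 13334 genes passed and 15.4% had such a p. DESeq2 and limma-voom called none of the S phase or mitosis genes either. *Pcna* was the 1 gene of the 44 whose groups did not overlap, higher in estrus (log2FC 0.49 ± 0.15, adjusted p = 0.12), while 2.86% of all genes tested were higher without overlap. The median log2FC was 0.12 for the S phase genes and 0.20 for the mitosis genes, and without replicate 5 of estrus 0.28 and 0.29. Without this animal 26 of the 44 genes had an unadjusted p below 0.05, compared with 18.0% of all genes tested in that fit, and *Top2a* passed (log2FC 0.46 ± 0.10, adjusted p = 0.022, edgeR). The animal had been set apart because most of these genes were low in it. Leaving it out raises their estrus level and narrows its spread by that choice alone. These p-values are therefore no support for a stage difference in ctrl. *Top2a* had 245, 223, 266, 273.6 and 136 CPM in estrus and 199, 180.3, 163, 180.3 and 194 CPM in diestrus.

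Other genes of ctrl showed the same animal. *Cdk1* had 105, 125, 139, 103 and 51.8 CPM in estrus and 103, 85.3, 92.0, 105 and 96.7 CPM in diestrus (log2FC 0.12 ± 0.20, and 0.28 ± 0.11 without replicate 5). *Ccnb1* had 42.8, 35.7, 36.9, 37.2 and 16.7 CPM in estrus and 40.6, 34.6, 32.4, 37.2 and 31.3 CPM in diestrus (log2FC -0.06 ± 0.20, and 0.11 ± 0.12 without it). *Mki67* had 18.8, 18.2, 17.5, 20.6 and 25.0 CPM in diestrus (log2FC 0.43 ± 0.27, and 0.63 ± 0.18 without it). In diestrus *Mcm5* had 35.7, 43.3, 30.2, 33.3 and 31.1 CPM and *Rrm2* had 28.6, 32.6, 18.8, 18.5 and 31.9 CPM.

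That 12 genes passed in FL1 and none in ctrl does not show a difference between the lines. The line-by-stage interaction, tested over all 20 libraries, was not significant for any of the 44 genes (smallest adjusted p = 0.16, edgeR), with 3 at an unadjusted p below 0.05, while 0.0565% of 14154 genes passed and 11.7% had such a p. No gene of the 44 passed in the interaction in the 20 fits without 1 library, nor with DESeq2 or limma-voom. The smallest p belonged to *Tyms*, with an interaction of 0.86 ± 0.24 on the log2 scale (0.76 ± 0.23 without replicate 5 of ctrl in estrus). Its CPM in ctrl was 22.2, 26.0, 22.0, 26.6 and 15.3 in estrus and 26.0, 23.9, 18.1, 22.4 and 23.3 in diestrus. The interaction was -0.45 ± 0.23 for *Pcna* and 0.49 ± 0.29 for *Mcm6* (adjusted p = 0.46 and 0.53). Its median was 0.14 for the S phase genes and 0.32 for the mitosis genes, and 0.04 and 0.15 without replicate 5 of ctrl in estrus.

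The G1 cyclin and the inhibitors were considered apart from the S phase and mitosis genes. *Ccnd2* had 1193, 953, 834, 1276 and 753 CPM in ctrl in estrus and 774, 605, 551, 757 and 832 CPM in ctrl in diestrus (log2FC 0.51 ± 0.17, adjusted p = 0.13, edgeR), and without replicate 5 the log2FC was 0.59 ± 0.15 (adjusted p = 0.053). In FL1 it had 821, 1055, 748, 777 and 640.3 CPM in estrus and 656, 637, 812, 1001 and 711 CPM in diestrus (log2FC 0.08 ± 0.14). It passed in no comparison, and its highest group mean was in ctrl in estrus, with and without replicate 5. The S phase and mitosis genes with their highest mean in FL1 in estrus were 34 of 41, and 27 without this animal. Without it, 10 of the 20 S phase genes and 3 of the 21 mitosis genes had their highest mean in ctrl in estrus, as *Ccnd2* did.

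*Cdkn1a*, which stops the cycle, rose from diestrus to estrus in FL1 together with genes that drive it. Its CPM was 83.3, 116, 109, 113 and 130.0 in FL1 in estrus and 35.4, 95.4, 65.9, 57.9 and 27.7 in FL1 in diestrus (log2FC 0.96 ± 0.24, adjusted p = 0.011, edgeR). In ctrl it had 110.4, 74.1, 77.9, 109.6 and 385 CPM in estrus and 202, 58.6, 44.1, 30.0 and 53.1 CPM in diestrus (log2FC 0.95 ± 0.55, adjusted p = 0.45, and 0.25 ± 0.44 without replicate 5 of estrus). In each stage of ctrl 1 animal was far above the others, and that of diestrus (202 CPM) remained in the fit without replicate 5 of estrus. The other ctrl animals had 74.1 to 110.4 CPM in estrus and 30.0 to 58.6 CPM in diestrus. The estrus animal is the one with the low levels of the S phase and mitosis genes. *Cdkn1b* had 232, 173, 168, 247 and 146 CPM in ctrl in estrus, 275, 220.4, 192, 203 and 188 CPM in FL1 in estrus, 175, 170.3, 179, 137 and 114 CPM in ctrl in diestrus and 223, 139, 164, 187 and 184 CPM in FL1 in diestrus, and passed in no comparison.

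The wider pathway was read from 38 other replication genes, 42 other mitosis genes and 30 regulators. Between the stages of FL1, 7 of the 38 replication genes and 12 of the 41 mitosis genes tested were higher in estrus and none was lower, compared with the 7.42% of all genes tested that were higher. The replication genes were *Chaf1b*, *Prim2*, *Rfc2*, *Rpa1*, *Lig1*, *Tk1* and *Gmnn*, with log2FC from 0.37 (*Rpa1*, single-strand binding protein) to 0.97 ± 0.21 (*Tk1*, thymidine kinase). The mitosis genes were *Ccnf*, *Ncapg*, *Cdca3*, *Cdca8*, *Kif22*, *Ndc80*, *Spc24*, *Hmmr*, *Mad2l1*, *Cdc25b*, *Pbk* and *Pttg1*, led by *Ndc80* of the kinetochore (1.06 ± 0.22). Their medians were 0.23 and 0.46 over all tested members of each list. *Ndc80* had 26.9, 21.6, 10.3, 18.9 and 14.1 CPM in estrus and 8.75, 8.39, 9.15, 8.37 and 9.18 CPM in diestrus, without overlap.

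Between the lines in estrus 1 of these genes passed, *Tipin*, which stabilises replication forks, while 2.33% of 13374 genes passed in either direction. It was higher in FL1 (log2FC 0.70 ± 0.13, adjusted p = 0.0093, edgeR, and 0.63 ± 0.12 without replicate 5 of ctrl, adjusted p = 0.0088), with 76.4, 58.5, 56.4, 74.1 and 70.0 CPM against 43.2, 38.3, 46.0, 45.4 and 33.1 CPM in ctrl, without overlap. *Tipin* and *Dbf4* were the 2 of the 38 other replication genes that were higher in FL1 in estrus without overlap, as were 332 of 13374 genes tested. None of the genes of the wider pathway passed in diestrus between the lines, nor in the interaction, while 4.11% and 0.0565% of all genes tested passed. Of the regulators, *Cdkn2b*, the gene of the CDK inhibitor p15, was lower in estrus in ctrl (log2FC -1.04 ± 0.23, adjusted p = 0.029, and -1.17 ± 0.23 without replicate 5, adjusted p = 0.015), with 105, 55.1, 42.1, 80.3 and 105 CPM in estrus and 124, 151, 148, 177 and 194 CPM in diestrus. *Cdkn2d*, the gene of the inhibitor p19, was higher in estrus in FL1 (log2FC 0.46 ± 0.13, adjusted p = 0.026). Each was the only 1 of the 30 regulators to pass in its comparison. Over all genes tested, 2.85% passed between the stages of ctrl and 15.9% between those of FL1. The E2F, RB and FOXM1 genes of the list did not pass in any comparison.

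Cell type markers also differed between the stages of FL1. Of the markers tested, 4 of 9 granulosa, 6 of 8 luteal, 2 of 3 theca, 4 of 5 endothelial and 4 of 5 erythroid markers were lower in estrus, whereas 1 of 8 luteal, 4 of 5 surface epithelium and 3 of 5 stroma markers and 1 of 10 oocyte markers were higher. Over all genes tested, 8.49% were lower and 7.42% were higher. The median log2FC in FL1 was -0.49 (granulosa), -0.83 (luteal), -0.57 (theca), -0.71 (endothelial), -1.07 (erythroid), 0.95 (surface epithelium), 0.55 (stroma) and 0.36 (oocyte). In ctrl, with replicate 5 of estrus, it was -0.33, -0.67, 0.01, -0.16, -0.95, -0.16, 0.64 and -0.02 in the same order. The summed CPM of the luteal markers ranged from 18013 to 35467 in FL1 in estrus and from 35765 to 46616 in FL1 in diestrus. The summed CPM of the surface epithelium markers ranged from 105 to 188 in FL1 in estrus and from 61.1 to 91.0 in FL1 in diestrus. The part of these markers in the higher level of the mitosis genes was not tested.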

How the data were processed

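Ovarian RNA of 20 mice was sequenced by the authors with a 3' mRNA-Seq kit, aligned to GRCm38 and counted per Ensembl gene. The deposited values are raw counts, 1 table per animal. STAR and Cuffdiff are named in the submitters' processing notes, and the counting tool and its strand setting are not given in the sources used here. Of the 44 genes, 8 overlap another gene on the same strand and 18 on the opposite strand. In addition, 11 share at least 50 words of 31 nt with a gene elsewhere. For *Pola1* these were 11 genes that are not copies of it, among them *Cflar* and *Hdac1*. Groups were taken from the sample titles. The source name reads FL1 for every library and was not used.

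Counts were tested with the quasi-likelihood test of edgeR 4.0.16 (R 4.3.3) after TMM normalization, for genes kept by filterByExpr at its minimum count of 10. Benjamini-Hochberg adjustment covered all genes tested, with a threshold of 0.05. The SE is the log2FC divided by the square root of F. Each comparison used its 10 libraries and the interaction all 20. Log2 CPM had a prior count of 2. The scripts were tested on simulated data. The alternatives were RLE size factors, DESeq2 1.42.0, limma-voom (limma 3.58.1), all genes with at least 1 count, a replicate block, 1 fit of all 20 libraries, a prior count of 0.5 and each library left out in turn. The levels and group orders without replicate 5 of ctrl in estrus were added after seeing the data. The fits without it are among those that left out each library in turn, but were singled out for the text after seeing the data.

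The 44 genes and all lists were chosen with earlier results of these data known. Values per library are given for those of the 44 genes that passed in any comparison and for *Pcna*, *Mcm5*, *Rrm2*, *Mki67*, *Top2a*, *Cdk1*, *Ccnb1*, *Ccnd2*, *Cdkn1a* and *Cdkn1b*. P-values set a difference against the spread between these libraries, which includes both the animals and the library preparation. Depth was 5991223 to 10352718 counts per library (median 6957533).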

Additional observations from a re-analysis of the deposited data

Results flagged for a closer look

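Within groups of 5 animals, the highest or lowest library was compared with its nearest neighbour by Dixon's ratio (above 0.71). Chance flags about 1 in 20 groups, and 19 of the 176 combinations of a gene and a group were flagged, 11 of them in ctrl in estrus. All flags in that group were for replicate 5. It was low for *Mcm4* (17.6 CPM), *Mcm6* (42.1 CPM), *Rrm1* (55.0 CPM), *Fen1* (9.69 CPM), *Ccna2* (21.8 CPM), *Ccnb1* (16.7 CPM), *Cdc20* (35.1 CPM), *Kif11* (8.10 CPM), *Ube2c* (32.6 CPM) and *Prc1* (31.7 CPM), and high for *Cdkn1a* (385 CPM). Its S phase level of 4.23 and mitosis level of 4.43 (mean log2 CPM) were also flagged, against 5.07 to 5.14 and 5.43 to 5.56 in the other 4 animals.

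In ctrl in diestrus, *Pcna* was low in replicate 4 (19.0 CPM), *Mcm4* high in replicate 2 (65.4 CPM), *Tpx2* low in replicate 3 (34.5 CPM) and *Cdkn1a* high in replicate 1 (202 CPM). In FL1 in estrus, *Rrm1* was low in replicate 3 (74.6 CPM). In FL1 in diestrus, *Pola1* was low (21.5 CPM) and *Bub1* high (19.9 CPM) in replicate 5, *Ube2c* was high in replicate 4 (83.5 CPM), and the mitosis level exceeded the S phase level by 0.73 in replicate 1, against 0.42 to 0.46 in the other 4 animals.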

How the results depend on the processing

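The median log2FC of both classes and their mean levels moved by less than the SD of the class level between animals. This SD was taken from the more variable of the groups compared. For the levels this was fixed in advance, because leaving out 1 of 5 animals cannot move a mean by more than its SD. The median log2FC follow the differences of these levels, so that in the fits without 1 library it was largely fixed for them too. The SD of ctrl in estrus also includes replicate 5 (S phase 0.39, and 0.03 without it). Without this replicate the S phase median moved from 0.06 to -0.06 between the lines in estrus. Between the stages of ctrl it moved from 0.12 to 0.28. The mitosis median moved from 0.04 to 0.14 in diestrus without replicate 1 of ctrl and from 0.45 to 0.59 between the stages of FL1 without replicate 3 of estrus, in each case by more than the SD of 0.09 of FL1 in diestrus. Without replicate 5 of ctrl in estrus, 9 instead of 14 S phase genes had their highest group mean in FL1 in estrus. The counts of genes that passed moved more. Between the lines in estrus, 311 genes passed, compared with 670 with DESeq2, 477 with at least 1 count in total and 531 in 1 fit of all 20 libraries (175 to 418 without 1 library). In diestrus, 545 passed, compared with 891 with DESeq2 and 846 with at least 1 count (349 to 594 without 1 library), and *Mcm6* no longer passed in 1 fit of all 20 libraries, leaving 0 of the 44 genes. Between the stages of ctrl, 380 passed, compared with 771 with DESeq2 and 909 in 1 fit (176 to 516 without 1 library), and 0 to 1 of the 44 genes and of the mitosis genes passed without 1 library. Between the stages of FL1, 12 of the 44 genes passed, compared with 19 with at least 1 count and 6 in 1 fit (7 to 23 without 1 library). Of the S phase genes, 3 passed, compared with 5 with DESeq2 and 5 with at least 1 count (1 to 7 without 1 library). Of the mitosis genes, 8 passed, compared with 5 with limma-voom, 13 with at least 1 count and 4 in 1 fit (5 to 15 without 1 library). In the interaction 8 genes passed, compared with 148 with DESeq2, 3 with limma-voom and 17 with at least 1 count (0 to 15 without 1 library). The cause of these changes was not tested. With the replicate number as a block, 13 of the 44 genes passed between the stages of FL1. Same-numbered libraries are different animals, their deviations from the group means correlated at -0.10 to 0.13, and 1 or 2 of 5 libraries in a comparison correlated best with their own number. Intervals cover these animals only, and at 5 per group a difference as small as the SE of a gene cannot be told from 0.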
